A study of Mus musculus with 21 samples.

Results

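Dkk3, Ttc39a, Cadm1, Wdfy4, Naaa, Ppt1 and Padi1 were followed as genes taken to be restricted to type 1 conventional dendritic cells (cDC1) over type 2 cells (cDC2). They are 7 of the 37734 genes in the RNAseq data and were picked by name because earlier results of these data had shown them higher in cDC1. Their cDC1 to cDC2 differences are therefore given as descriptions without a test, and tests are confined to tissue and maturation within a subset. Tests within a subset use data that entered that choice, so they are not fully independent of it. The question was how far each gene stayed cDC1-restricted in the thymus and after maturation.

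The 21 libraries came from C57BL/6 mice aged 6 to 8 weeks, with cells of several mice pooled for each library. CD11c+ cells were enriched with magnetic beads and sorted by FACS, cDC1 as CD24+ CD11b- CD11c+ cells that lacked F4/80, Ly6g, Ly6c, DX5 and B220, and cDC2 as CD24- CD11b+ CD11c+ cells that lacked B220. Cells negative for CCR7 and Esam were labelled immature and cells positive for both mature. The groups were immature splenic cDC1 (SP1Minus, 5 libraries), immature thymic cDC1 (TH1Minus, 4), mature thymic cDC1 (TH1Plus, 3), immature splenic cDC2 (SP2Minus, 3), immature thymic cDC2 (TH2Minus, 3) and mature thymic cDC2 (TH2Plus, 3). Mature splenic cells were not analysed here. The libraries held 14266867 to 40119669 whole reads each, and intervals given below cover counting error only. Splenic cDC1 libraries 4 and 5 differed by a chi-square of 2.53 per degree of freedom, against 26.9 to 190 for the other pairs of that group. They were averaged and counted as 1 sample, so that 20 samples were compared. The labels do not say that replicates were independent sorts, so p-values measure the spread between these samples, which may be technical. The number that opens a library's label is shared by cDC1 and cDC2 libraries 1 to 3 of the immature spleen (2, 4 and 9) and of the immature thymus (6, 7 and 8), and by library 3 of the mature groups (569). Within a group that number is shared by splenic cDC1 libraries 1, 4 and 5 (2) and by immature thymic cDC1 libraries 3 and 4 (8). Mature thymic cDC1 library 1 also carries 8, so that number stands on both sides of the maturation comparison in cDC1. Apart from the averaged splenic libraries 4 and 5, the main tests count these as separate samples. The SEs of cDC1 minus cDC2 differences do not take a shared source into account.

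Conventional DCs take up antigen and present it to T cells. cDC1 depend on the transcription factors Batf3 and Irf8, carry Xcr1 and Clec9a, and are specialised in presenting antigen from dead cells on MHC class I. In the thymus cDCs present self antigen to developing thymocytes, and maturation brings Ccr7 and a change in many genes of antigen uptake. Wdfy4 is a BEACH domain protein needed by cDC1 for cross-presentation of cell-associated antigen. Naaa and Ppt1 are lysosomal enzymes, the first a hydrolase of N-acylethanolamines and the second a thioesterase that removes palmitate from proteins. Cadm1 is an adhesion molecule of the immunoglobulin superfamily that binds Crtam, Dkk3 is a secreted member of the Dickkopf family, Padi1 converts arginine residues to citrulline, and Ttc39a is a tetratricopeptide repeat protein.

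In mm10 with the GENCODE M21 annotation the members are protein-coding genes on 5 chromosomes. Ttc39a (chr4:109406623-109444745), Ppt1 (chr4:122836242-122859175) and Cadm1 (chr9:47530173-47857637) lie on the forward strand. Dkk3 (chr7:112116017-112159057), Wdfy4 (chr14:32959547-33185508), Naaa (chr5:92257659-92278170) and Padi1 (chr4:140812983-140845778) lie on the reverse strand. Exons of Ppt1 overlap exons of Cap1 on the other strand, and exons of Padi1 overlap those of Gm13032. The library kit kept strand, but the strand setting of the counting is not given in the sources used here. The normalized read count of Cap1 stayed between 8940 and 14891 in the 20 samples, and that of Gm13032 between 0 and 21.8.

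Promoters are shown for Naaa and Ppt1, the member pair whose levels ran most alike over the samples, and for Padi1, which was high in immature thymic cDC1 alone among the 6 groups. They are the 250 bases before the RefSeq start of each gene (GRCm38.p6), written 5′ to 3′ on the strand of the gene, and they overlap no exon of GENCODE M21. Capitals mark GGAA on either strand, the core bound by ETS factors.
Naaa, chr5:92278182-92278431, reverse strand: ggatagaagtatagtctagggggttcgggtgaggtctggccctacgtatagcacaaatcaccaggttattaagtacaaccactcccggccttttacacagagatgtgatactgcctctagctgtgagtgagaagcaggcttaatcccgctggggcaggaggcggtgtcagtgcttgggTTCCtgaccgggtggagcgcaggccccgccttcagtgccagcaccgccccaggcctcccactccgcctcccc
Ppt1, chr4:122835977-122836226, forward strand: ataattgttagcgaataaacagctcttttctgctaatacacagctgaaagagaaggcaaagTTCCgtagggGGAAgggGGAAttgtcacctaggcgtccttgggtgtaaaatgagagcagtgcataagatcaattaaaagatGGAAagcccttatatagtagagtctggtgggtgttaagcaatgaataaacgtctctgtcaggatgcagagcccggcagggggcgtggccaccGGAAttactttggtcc
Padi1, chr4:140845779-140846028, reverse strand: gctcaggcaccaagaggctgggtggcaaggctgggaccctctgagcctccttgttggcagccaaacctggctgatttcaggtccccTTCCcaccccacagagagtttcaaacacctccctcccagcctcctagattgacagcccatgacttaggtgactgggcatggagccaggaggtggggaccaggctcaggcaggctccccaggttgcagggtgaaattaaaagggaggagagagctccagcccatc
The GGAA core was found 5 times before Ppt1 and 1 time each before Naaa and Padi1, and 93.4% of the 32817 promoters of that length held it. The core was added after the other motifs had given no match. None of the 5 member promoters in the table, which holds neither Dkk3 nor Cadm1, contained the letters of the ETS-IRF composite element (GGAANNGAAA, in 2.30% of all promoters), the interferon-stimulated response element (GAAANNGAAA, 2.97%) or the AP-1 site (TGANTCA, 6.75%). The same held for the AP-1-IRF composite elements TTTCNNNNTGANTCA (0.0975%) and GAAATGANTCA (0.101%). Both strands were searched. The AP-1 letters are contained in both composite elements, and the ETS core in the ETS-IRF element.

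The label was checked against the levels. In the spleen the cDC2 mean was 0.0250% of the cDC1 mean for Dkk3 (95% Poisson interval up to 0.139%, from 1 cDC2 read), 0.136% for Ttc39a, 3.60% for Naaa, 4.34% for Ppt1 and 4.53% for Cadm1. Wdfy4 went against the label, since splenic cDC2 held 37.1% of the cDC1 level. Padi1 could not be judged in the spleen, with 21 reads in all splenic cDC1 libraries and 1 in splenic cDC2 (share 12.3%, interval 0.312% to 68.7%). By these levels Wdfy4 was higher in cDC1 than in cDC2 without being restricted to it, and Padi1 was high in immature thymic cDC1 alone among the 6 groups.

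In immature thymic cells the cDC2 share was 0.758% for Dkk3, 0.795% for Ttc39a, 3.21% for Cadm1, 5.85% for Ppt1, 14.3% for Naaa, 52.0% for Wdfy4 and 0.339% for Padi1 (interval up to 0.868%). In mature thymic cells it was 13.7% for Dkk3 (from 35 reads in cDC1 and 10 in cDC2), 17.1% for Cadm1, 26.4% for Ttc39a, 89.1% for Ppt1, 136% for Naaa and 227% for Wdfy4. Padi1 held 0 to 10 reads per mature cDC1 sample and 2 to 19 per mature cDC2 sample. The cDC1 and cDC2 samples did not overlap for any member in the immature thymus or, except Padi1, in the spleen. In mature cells they overlapped for Dkk3, Naaa, Ppt1 and Padi1. They stayed apart for Ttc39a and Cadm1, higher in cDC1, and for Wdfy4, higher in cDC2. How many of all genes tested had no such overlap was not counted. Of all 14970 genes tested, 6.7% were called higher and 9.93% lower in cDC1 than cDC2 in the spleen, 5.42% and 11% in the immature thymus and 4.36% and 14.6% in the mature thymus, where a call required a limma adjusted p below 0.1 and a change of over 2-fold. These values chose the members, and nothing is read from them.

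A list of 20 other cDC1 genes, written with earlier results of these data known, gave a median cDC2 share of 3.12% in the spleen, 8.01% in the immature thymus and 33.3% in the mature thymus. The list includes Cd24a, the gene of the CD24 used to sort the subsets, so it is not fully independent of the sort. The share was under 10% for 16 genes, 12 genes and 4 genes in that order. In mature cells it exceeded 100% for 4 genes, among them the double-stranded RNA receptor Tlr3 at 249%, which had 2 to 73 reads per mature sample. The chemokine receptor Xcr1 stayed at 0.373%, 1.23% and 4.30%, and the dead-cell receptor Clec9a at 6.43%, 5.04% and 2.98%. Xcr1 and Clec9a averaged 440 ± 164 and 1208 ± 258 normalized read counts (SD, n = 3) in mature cDC1, against 18.9 ± 7.21 and 36.0 ± 8.01 in mature cDC2. Batf3 was not restricted, at 56.3%, 45.4% and 90.7%.

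**Figure D1:**
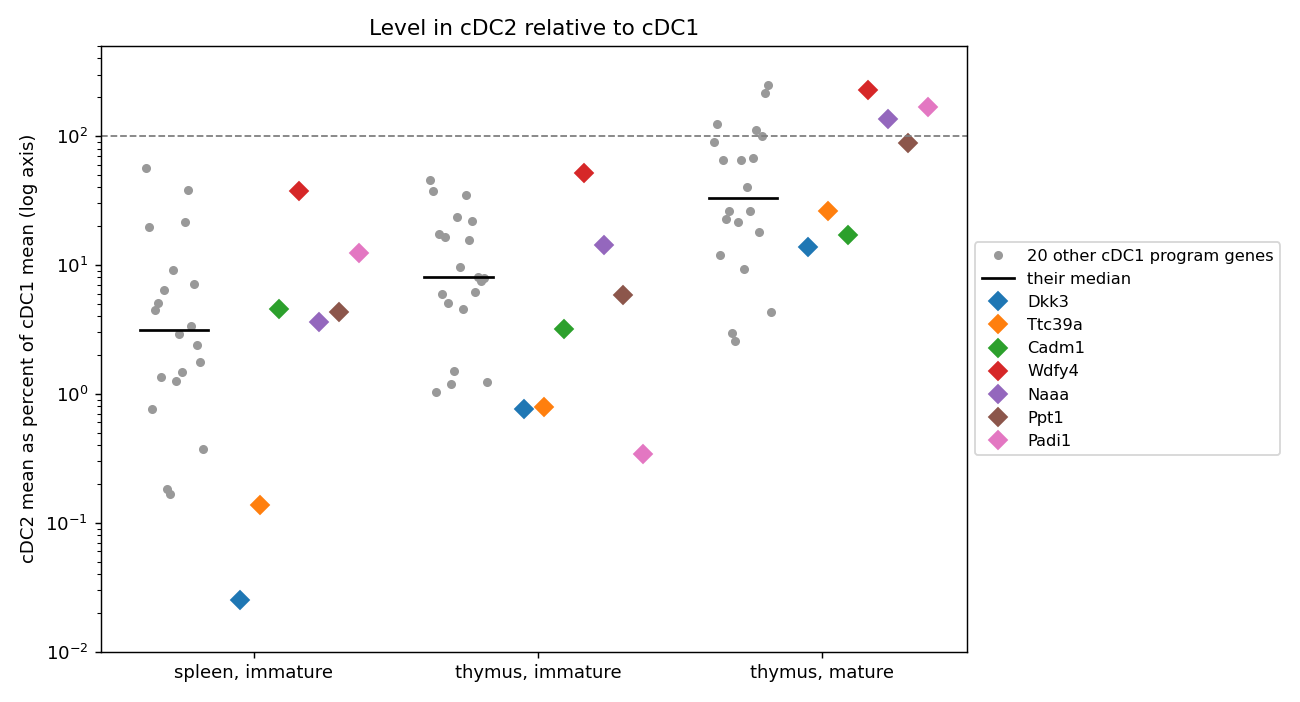
Mean level in cDC2 as percent of the mean in cDC1 (log axis) in immature splenic, immature thymic and mature thymic cells, for the 7 genes (diamonds) and 20 other cDC1 program genes (grey points, black line their median). Most points move up towards the dashed line at 100% in mature cells, where Wdfy4 stands at 227%, and Dkk3, Cadm1 and Ttc39a at 13.7% to 26.4%, up from 0.758% to 3.21% in immature thymic cells.

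Dkk3 was found in immature cDC1 and at few reads elsewhere. Its normalized read counts were 1471, 1004, 1429 and 985 in immature splenic cDC1 and 461, 429, 454 and 410 in immature thymic cDC1. They were 47.9, 0 and 7.20 in mature thymic cDC1, from 26, 0 and 9 reads. All thymic cDC1 samples lay below all splenic ones, and all mature ones below all immature ones. The cDC2 samples held 0 to 8 reads each. The cDC1 minus cDC2 difference on the log2(value + 1) scale was 9.92 (SE 0.87) in the spleen, 6.83 (SE 0.87) in the immature thymus and 1.52 (SE 0.93) in the mature thymus. The last of these was 0.15 without mature cDC1 replicate 1 and 2.96 without replicate 2.

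Cadm1 was higher in cDC1 than in cDC2 in each setting, without overlap. Immature splenic cDC1 had normalized read counts of 11847, 9829, 7598 and 8286, and immature thymic cDC1 had 6071, 5516, 4870 and 6162. Mature thymic cDC1 had 516, 633 and 620. The order of the 6 groups ran from splenic to thymic to mature cDC1 and then from splenic to thymic to mature cDC2, and no neighbouring groups overlapped. The cDC2 counts were 372, 470 and 433 in the spleen, 156, 190 and 198 in the immature thymus and 139, 118 and 45.5 in mature cells. The cDC1 minus cDC2 difference was 4.45, 4.96 and 2.68 log2 units in the spleen, immature thymus and mature thymus, with SEs from 0.26 to 0.28.

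Wdfy4 was abundant in immature cells of both subsets. Immature splenic cDC1 had 95296, 114562, 137628 and 102115 normalized read counts and immature thymic cDC1 had 127965, 117675, 102224 and 101362, so that these groups overlapped. Splenic cDC2 had 38695, 33683 and 52880, and immature thymic cDC2 had 56293, 61060 and 57921. In mature cells the order of the subsets turned, with 1018, 863 and 1763 in cDC1 and 2960, 3237 and 2089 in cDC2. The cDC1 minus cDC2 difference went from 1.44 (SE 0.23) in the spleen to 0.94 (SE 0.23) in the immature thymus and -1.23 (SE 0.24) in the mature thymus.

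Naaa was far above the floor in cDC2 as well, more so in the thymus than in the spleen. Immature cDC1 had 36723, 38257, 40732 and 39122 normalized read counts in the spleen and 47008, 47565, 51295 and 40781 in the thymus. Splenic cDC2 had 1558, 1190 and 1431 and immature thymic cDC2 had 6007, 6627 and 7341, with no overlap. Mature cDC1 had 199, 128 and 295 and mature cDC2 had 322, 353 and 173, which overlapped. The cDC1 minus cDC2 difference was 4.80, 2.81 and -0.46 log2 units in the 3 settings, with SEs from 0.23 to 0.25.

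Ppt1 had the highest level per exon length of the 7 genes in immature cDC1, with 22610 normalized read counts per kb in the spleen and 19543 in the thymus, against 10652 for Wdfy4 in the spleen and 12540 for Naaa in the thymus, the next highest members there. Its counts were 87021, 91504, 71723 and 82023 in immature splenic cDC1 and 71370, 75487, 75525 and 64827 in immature thymic cDC1. The cDC2 samples had 3554, 3792 and 3458 in the spleen and 3221, 4407 and 4972 in the immature thymus, and these overlapped. Mature cDC1 had 942, 851 and 1608 and mature cDC2 had 1059, 1113 and 858. The cDC1 minus cDC2 difference was 4.52, 4.12 and 0.12 log2 units (SE 0.19 to 0.20), and the last was -0.16 without mature cDC1 replicate 3. The mature counts of Ppt1 were lower than those of Cap1, whose exons overlap, and the part of shared reads in them was not tested.

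Padi1 was found in immature thymic cDC1 with 419, 416, 325 and 399 normalized read counts. Every other sample held at most 19 reads. The counts were 5.15, 1.97, 9.24 and 1.27 in immature splenic cDC1 and 0, 3.47 and 8.00 in mature thymic cDC1. Mature thymic cDC2 had 1.54, 2.78 and 14.9. The groups other than immature thymic cDC1 overlapped with their neighbours in level. Padi1 passed the filter on low values only through immature thymic cDC1, so that its differences from the other groups in cDC1 are given as descriptions, with no test. The thymic to splenic ratio of its cDC1 means was 88.4, from 208 to 500 reads per thymic sample and 2 to 10 per splenic sample, a log2 difference of 6.42 (SE 0.68). From immature to mature thymic cDC1 the log2 difference was -6.83 (SE 0.74).

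Ttc39a was the member that was higher after maturation. Immature cDC1 had 2724, 2802, 3248 and 2758 normalized read counts in the spleen and 3266, 3233, 3909 and 3252 in the thymus, and mature cDC1 had 8631, 8608 and 8575. Splenic cDC2 had 6.41, 3.75 and 1.63, from 1 to 7 reads, and immature thymic cDC2 had 18.1, 27.5 and 35.8. Mature thymic cDC2 had 2441, 2053 and 2313, a level just below that of immature splenic cDC1 with no overlap. The cDC1 minus cDC2 difference was 9.31, 6.97 and 1.93 log2 units in the 3 settings (SE 0.25 to 0.27).

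**Figure D2:**
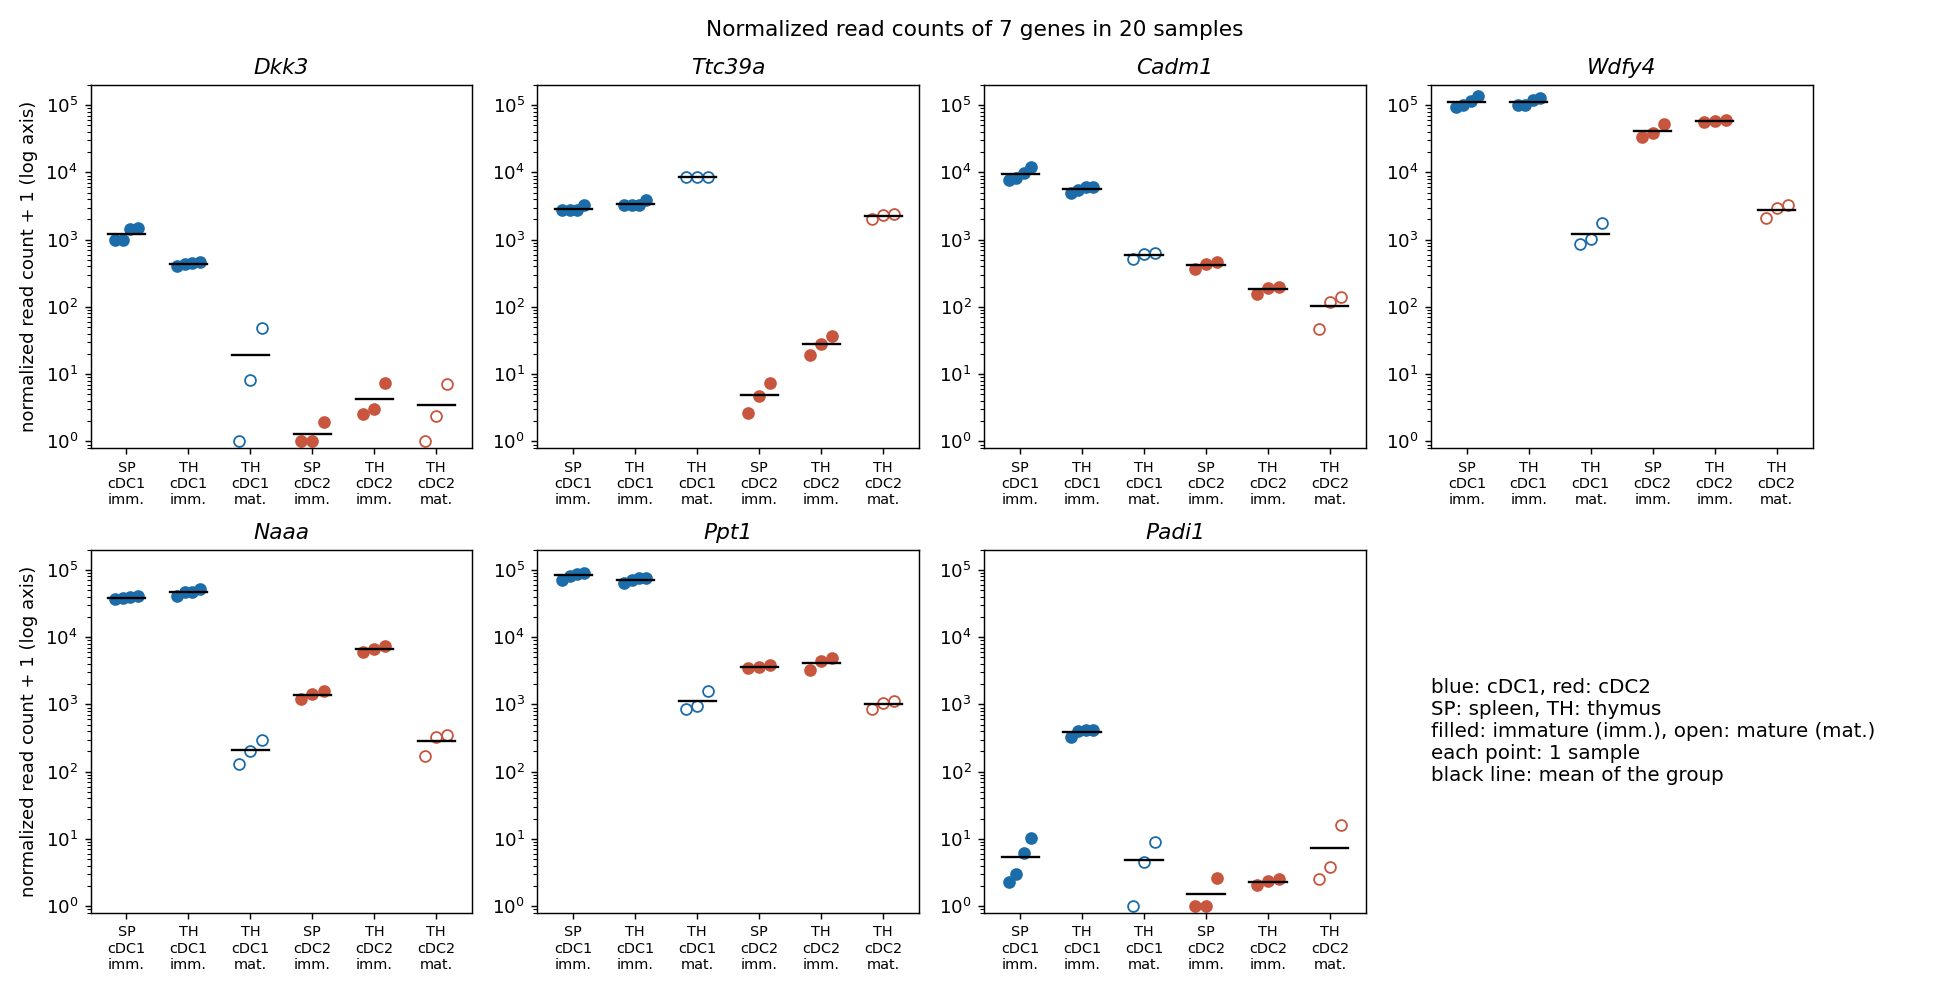
Normalized read count plus 1 (log axis) of each gene in 20 samples of 6 groups, cDC1 in blue and cDC2 in red, with filled points for immature and open points for mature cells and a black line at the group mean. Wdfy4, Naaa and Ppt1 fell in both subsets with maturation, Ttc39a rose in both, and Padi1 stood above 300 in immature thymic cDC1 alone.

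**Figure D3:**
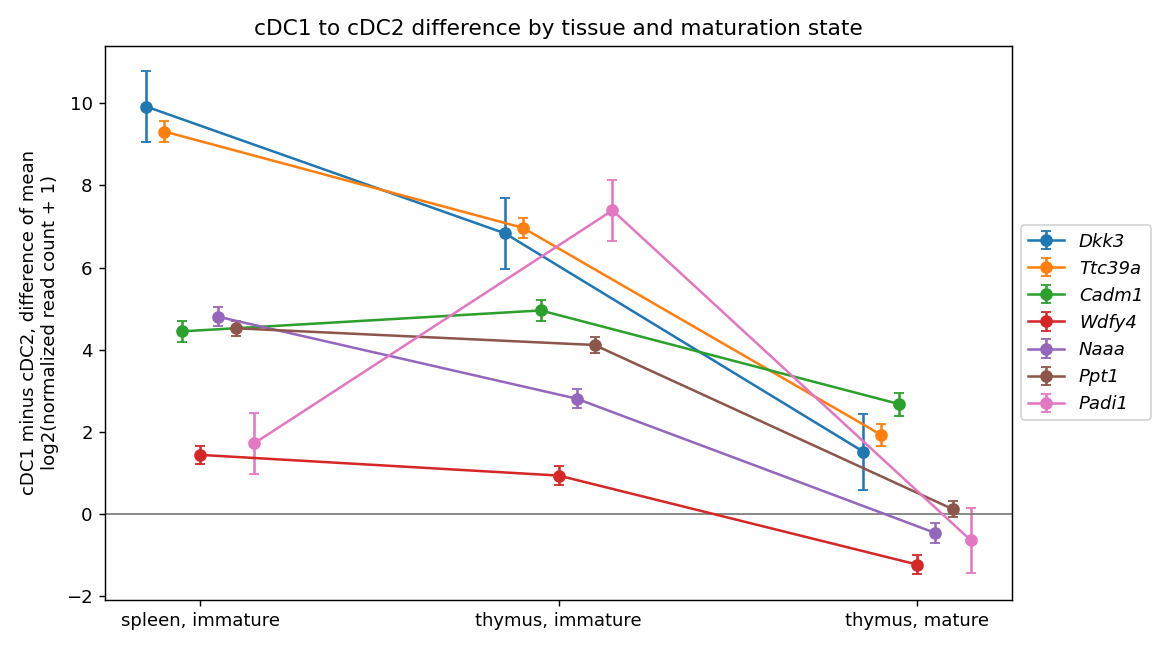
Difference between cDC1 and cDC2 means of log2(normalized read count + 1) for the 7 genes in immature spleen, immature thymus and mature thymus, with error bars of 1 SE. Dkk3 and Ttc39a start at 9.92 and 9.31, Padi1 peaks at 7.39 in the immature thymus, and Wdfy4 ends at -1.23.

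Thymic and splenic immature cDC1 were compared to ask whether the tissue moved the members within the subset. Of the 6 members other than Padi1, limma called 0, where 8.77% of all genes tested were called, 4.26% higher and 4.52% lower. Of these 6 only Cadm1 had an unadjusted p below 0.05 by limma, edgeR called Dkk3, and DESeq2 called 0. Cadm1 was lower in the thymus in all samples, by a log2 fold change of -0.72 (SE 0.24, limma adjusted p = 0.0586), which is under the 2-fold limit. Dkk3 gave -1.45 (SE 0.80, limma adjusted p = 0.324) and was lower in all 4 thymic samples. With only these groups fitted it was called, at a limma adjusted p of 5.63e-04, as it was by edgeR (adjusted p = 0.028) and with a pseudocount of 8 (limma adjusted p = 0.0171). The log2 fold changes of Ttc39a, Naaa and Ppt1 lay between -0.21 and 0.27 and did not pass, and that of Wdfy4 was 0.01, with a sign that turned under other scalings.

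In the exact two-sided permutation test over samples, Dkk3, Cadm1 and Naaa reached p = 0.0286, the smallest that 4 against 4 samples allow, and adjusted over the 28 member comparisons (those of Padi1 included) p was 0.122. The other comparisons, of 3 against 4 or 3 against 3 samples, cannot go below 0.0571 and 0.1 in that exact test. With these limits no adjusted p below 0.1 was possible whatever the data, so the adjusted value of 0.122 decides nothing. Samples that share a label number within a group were permuted as separate samples, so 0.0286 takes them as independent. Libraries ran in lanes 5 and 8. Within lane 5 and lane 8 the thymus minus spleen difference in cDC1 was 6.62 and 6.30 for Padi1, -1.40 and -1.46 for Dkk3 and -0.83 and -0.53 for Cadm1. Lane 5 held 1 thymic and 2 splenic cDC1 samples, and lane 8 held 3 and 2.

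In cDC2, Ttc39a, Naaa and Cadm1 were called between tissues, 3 of the 7 genes, where 14.2% of all genes tested were called, 8.3% higher and 5.87% lower. Ttc39a rose in the thymus by 2.59 log2 units (SE 0.27, limma adjusted p = 6.14e-07) and Naaa by 2.26 (SE 0.25, limma adjusted p = 1.18e-06). Cadm1 had a log2 fold change of -1.23 (SE 0.28, limma adjusted p = 0.00324). Within lanes 5 and 8 the differences were 1.69 and 3.62 for Ttc39a, 2.14 and 2.28 for Naaa and -1.42 and -1.16 for Cadm1. They compare 1 thymic with 2 splenic samples in lane 5, and 2 with 1 in lane 8. The splenic cDC2 sample in lane 8 held 1 Ttc39a read, under the floor of 3 reads. Wdfy4 and Ppt1 gave 0.51 (SE 0.24) and 0.20 (SE 0.20), with limma adjusted p of 0.154 and 0.544. Dkk3 rested on 1 read in spleen and 10 in thymus, and all Padi1 libraries of these groups held 2 reads or fewer. In the same thymic cDC2 libraries, 11 of the 20 listed cDC1 genes rose and 1 fell, with a median log2 fold change of 1.57, against a median of 0.02 over all genes tested. Xcr1 rose from 46.9 ± 19.3 to 235 ± 139 normalized read counts (SD, n = 3 and 3), and Clec9a, the gene that fell, went from 916 ± 84.6 to 351 ± 109 (SD, n = 3 and 3). The part of cDC1 cells in the rise of Naaa and Ttc39a was not tested. Whether tissue effects differed between cDC1 and cDC2 was not tested.

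Mature and immature thymic cells were compared to ask what happened to the members with maturation. In cDC1 all 6 members other than Padi1 were called, 5 lower and Ttc39a higher in mature cells, where 45.7% of all genes tested were called, 24.5% lower and 21.3% higher. Picking members for high levels in cDC1 favours a fall from those levels. The count, and the p-values and rank of the falls in cDC1, are therefore descriptions. The fall was largest for Naaa, which fell by 7.88 log2 units (SE 0.23, limma adjusted p = 3.86e-16), from a mean of 46662 ± 4358 (SD, n = 4) to 207 ± 83.7 (SD, n = 3), a ratio of 225. This was the 12th lowest of 14970 fold changes. Wdfy4 fell by 6.59 (SE 0.23, limma adjusted p = 3.94e-15) and Ppt1 fell by 6.04 (SE 0.19, limma adjusted p = 9.78e-16), or 92.5-fold and 63.3-fold by their means. Cadm1 fell by 3.26 (SE 0.26, limma adjusted p = 1.26e-09), 9.59-fold by its means.

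Dkk3 was at few reads in mature cDC1. It fell by 5.90 (SE 0.87, limma adjusted p = 6.47e-06), and leaving out mature replicate 1 or 2 gave -7.26 and -4.45. Ttc39a rose by 1.34 (SE 0.25, limma adjusted p = 1.1e-04), 2.52-fold by its means, and its 3 mature samples lay within 8575 to 8631. All mature libraries ran in lane 8. Within that lane the differences were -7.88 for Naaa, -6.53 for Wdfy4, -6.04 for Ppt1 and 1.32 for Ttc39a. Mature cDC1 replicate 3 had the highest Wdfy4, Naaa and Ppt1 of its group, and mature cDC2 replicate 3 the lowest of these and of Cadm1.

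In mature cDC2, 4 of the 7 genes were called, 3 lower and 1 higher, where 35.6% of all genes tested were called, 17% lower and 18.6% higher. Ttc39a rose by 6.38 log2 units (SE 0.27, limma adjusted p = 4.29e-13), from a mean of 27.1 ± 8.84 (SD, n = 3) to 2269 ± 197 (SD, n = 3), a ratio of 83.6 and the 70th highest of 14970. Within lane 8 it was 6.13. In those mature cDC2 libraries Ttc39a was at 26.4% of its level in mature cDC1, and the 20 listed cDC1 genes had a median of 33.3%, with Clec9a at 2.98%, Xcr1 at 4.30% and 4 genes above 100%. Their part in the rise of Ttc39a was not tested. Naaa fell by 4.61 (SE 0.25, limma adjusted p = 1.01e-11), Wdfy4 fell by 4.43 (SE 0.24, limma adjusted p = 1.4e-11) and Ppt1 fell by 2.04 (SE 0.20, limma adjusted p = 5.52e-08). Within lane 8 these differences were -4.69, -4.45 and -2.22.

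Cadm1 gave -0.98 in cDC2 (SE 0.28, limma adjusted p = 0.00659), just under the 2-fold limit, and was called without mature cDC2 replicate 1 or 2 or immature cDC2 replicate 1, at -1.28, -1.17 and -1.08. Without mature cDC2 replicate 3, the lowest of its group, the value was -0.49. Dkk3 and Padi1 did not pass by limma, with limma adjusted p of 0.648 and 0.223. Padi1 was called higher by edgeR (adjusted p = 0.0698) and DESeq2 (adjusted p = 0.0473), with 19 of its 25 mature cDC2 reads in replicate 3. The maturation comparisons use the same immature thymic samples as the tissue comparisons. Whether maturation effects differed between cDC1 and cDC2 was not tested. In bulk samples, fewer cells of a type and less RNA per cell cannot be told apart.

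**Figure D4:**
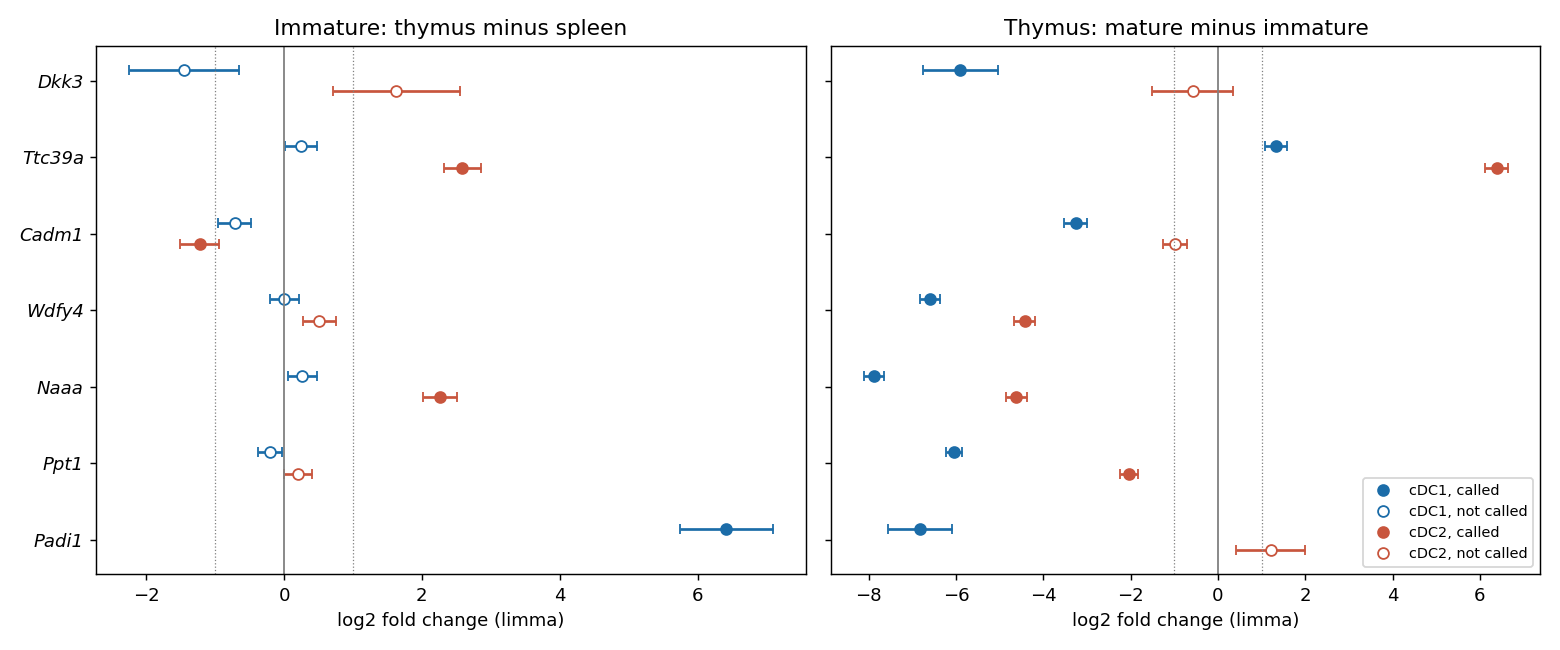
Log2 fold changes (limma, bars 1 SE) of thymus over spleen in immature cells (left) and mature over immature in the thymus (right), for cDC1 in blue and cDC2 in red, filled where the gene was called. Padi1 passed the filter on low values only through immature thymic cDC1, which favours a call, so its calls in cDC1 are descriptions. The dotted lines mark the 2-fold limit, and Padi1 between tissues in cDC2 is left out because both groups held 2 reads or fewer per library. Ttc39a stands at 1.34 and 6.38 on the right, and Naaa at -7.88 and -4.61.

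Counts of lists are read against all genes tested, of which 24.5% fell and 21.3% rose with maturation in cDC1 and 17% fell and 18.6% rose in cDC2. Among the 20 listed cDC1 genes, 16 fell and 2 rose with maturation in cDC1, with a median log2 fold change of -3.92 against -0.04 over all genes tested. In cDC2, 10 fell and 4 rose, with a median of -1.38 against 0.04. Xcr1 fell by 5.51 (SE 0.40) and Tlr3 fell by 8.45 (SE 0.70) in cDC1. The transcription factor Batf3 rose by 1.82 (SE 0.27), and Irf8, another of the cDC1 factors, had -0.66 (SE 0.23), under the 2-fold limit. In cDC2, Irf8 rose by 2.49 (SE 0.25) and Batf3 by 2.78 (SE 0.29). Of 9 maturation markers, which include Esam and Ccr7 of the sort, 8 rose in cDC1 and 6 in cDC2. Of 18 listed cDC2 genes, which include Itgam (CD11b) of the sort, 5 rose and 10 fell with maturation in cDC1. In cDC2, 1 of them rose and 10 fell. In the comparisons between tissues, 2 of the 18 rose and 10 fell in cDC1, and 3 rose and 7 fell in cDC2. Between tissues 4.26% of all genes tested rose and 4.52% fell in cDC1, and 8.3% rose and 5.87% fell in cDC2.

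Families of the members were small and were described by the same calls, beside the shares of all genes tested given above, 45.7% called with maturation in cDC1 and 35.6% in cDC2. Cadm3, an adhesion molecule of the Cadm1 family, had the opposite subset order, with 3493 ± 410 (SD, n = 3) in splenic cDC2 and 435 ± 164 (SD, n = 4) in splenic cDC1. Cadm3 rose with maturation in cDC1 by 3.04 (SE 0.25), from a mean of 53.1 in immature to 434 in mature thymic cells. The mature mean was thus near that of immature splenic cDC1. In cDC2 its change was 0.99 (SE 0.27), not called. Of the 6 tested genes in a list of the Dickkopf family, Kremen genes and Wnt co-receptors, 2 rose and 2 fell with maturation in cDC1. The rises were in Dkkl1 (4.70, SE 0.42) and Dkk2 (3.90, SE 1.01). Kremen2 and Lrp5 had log2 fold changes of -5.55 (SE 0.52) and -1.35 (SE 0.28). Dkk2 averaged 37.9 ± 33.4 in mature cDC1 (SD, n = 3), with 0 to 64 reads per sample, and 277 ± 115 in mature cDC2 (SD, n = 3). Padi2, the other deiminase that passed the filter, fell in both subsets, with log2 fold changes of -5.91 (SE 0.28) in cDC1 and -3.16 (SE 0.30) in cDC2. It was present in each immature group, with means from 817 to 2678.

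Of 9 tested BEACH domain and Wdfy family genes, 4 fell and 1 rose in mature cDC1, and 2 fell and 1 rose in mature cDC2. For each list here, the shares of all genes tested were 24.5% lower and 21.3% higher in mature cDC1, and 17% and 18.6% in mature cDC2. Wdfy2 fell by 3.87 (SE 0.16) in cDC1 and fell by 4.61 (SE 0.17) in cDC2. Of 6 genes of the acid ceramidase and fatty acid amide list, 2 fell in mature cDC1 and 0 were called in mature cDC2. Asah1, the acid ceramidase and a relative of Naaa, had -0.17 (SE 0.19) in cDC1. Of 13 palmitoyl thioesterase and ceroid lipofuscinosis genes, 4 fell and 2 rose in mature cDC1, and 2 fell in mature cDC2. Ppt2 did not pass in either, while the lysosomal protease gene Tpp1 rose by 2.65 (SE 0.19) in cDC1. Tpp1 means in cDC1 were 600 in the spleen, 118 in immature thymic and 730 in mature thymic cells. Ttc39c rose by 2.95 (SE 0.26) in mature cDC1, and Ttc39b had 0.31 (SE 0.22).

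Over the 20 samples, the Pearson r of log2(value + 1) between members was highest for Naaa and Ppt1 (0.960), followed by Wdfy4 and Naaa (0.931), and lowest for Ttc39a and Wdfy4 (-0.294). These are descriptions across samples that share 6 groups. Of 11280 genes with a mean of at least 100 in at least 1 group, the closest to Wdfy4 were Plbd1 (0.996), Anxa6 (0.991) and Slamf8 (0.990), and to Naaa Mlec (0.995), Arsb (0.989) and Adk (0.984). Closest to Ppt1 were Cxcr3 (0.980), E030013I19Rik (0.979) and Cxcl9 (0.976). Closest to Ttc39a were Prkra (0.982), Cpq (0.969) and Morn1 (0.960), and to Cadm1 Agpat3 (0.977), Dbn1 (0.975) and Dnmbp (0.965). Dkk3 ran with Spg21 (0.956), Alpl (0.952) and Pdia5 (0.949). Pearson r does not take the size of a change into account. Spg21 means ran only from 1457 in mature thymic cDC2 to 2594 in immature splenic cDC1. The closest to Padi1 were Cdc42bpg (0.897), Shisa7 (0.878) and Hps4 (0.873), the weakest likeness among the members.

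Markers of other cell types moved with the groups. The summed 8 T cell markers, of which 7 were tested, were 3.69 to 11.8 normalized read counts in splenic cDC1, 130 to 160 in immature thymic cDC1 and 700 to 1545 in mature thymic cDC1, and all 7 rose in both cDC1 comparisons. In cDC2 they were 22.5 to 74.1, 108 to 213 and 653 to 1146, and 4 rose between tissues and 7 with maturation. Thymic epithelial markers (6 of 6 tested) were 57.2 to 79.3 in splenic cDC1, 597 to 711 in immature and 1805 to 2579 in mature thymic cDC1, and 96.1 to 156, 3507 to 3877 and 3817 to 4878 in the cDC2 groups in the same order. Single genes made up most of these sums, Epcam in immature thymic cells (581 ± 66.2 in cDC1 and 3516 ± 174 in cDC2, SD, n = 4 and 3) and Aire in mature cells (1793 ± 252 in cDC1 and 3408 ± 586 in cDC2, SD, n = 3). Of the 6, 4 rose between tissues in cDC1 and 6 in cDC2, and with maturation 2 rose and 1, Epcam, fell in cDC1 and 4 rose and Epcam fell in cDC2. Macrophage markers (6 of 7 found, all tested) were 469 to 822, 864 to 1187 and 5854 to 8438 in cDC1 and 1689 to 1771, 5284 to 8767 and 5140 to 17652 in cDC2. In the comparisons between tissues 0 of these 6 were called in cDC1 and 3 rose in cDC2, and with maturation 2 rose and 2 fell in cDC1 and 1 rose in cDC2. In cDC1 most of the sum in mature cells was Vcam1, which went from 695 ± 83.5 in immature to 6740 ± 1137 in mature thymic cells (SD, n = 4 and 3), while C1qa and C1qc fell. Vcam1, Epcam and Aire were named after their values were seen. Plasmacytoid DC markers were highest in immature thymic cDC2, at 10625 to 12184, against 3285 to 8189 in the other groups, and B cell markers in the splenic groups, at 566 to 984, against 106 to 401 in thymic groups. The T cell genes Themis and Dntt and the epithelial genes Foxn1 and Krt5 were at 0 in every splenic cDC1 sample. The part of these cells in the members' changes was not tested.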

How the data were processed

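Total RNA of sorted cDCs was sequenced by the authors from stranded mRNA libraries, trimmed, aligned to mm10 with STAR (version 2.6 per the labels), counted per Ensembl gene and normalized with DESeq2 (version 1.24.0). The deposited values are a signal, the read count divided by a size factor of the library, and whole reads were recovered from 100% of them. The Ensembl release and the strand setting are not given in the sources used here.

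The log2 of the deposited signal plus a pseudocount of 1 was fitted with limma (version 3.58.1, R 4.3.3) as 6 group means over 20 samples, with an intensity trend, keeping 14970 genes that reached 10 in 3 or more samples. Genes were called when p, adjusted by Benjamini-Hochberg, was under 0.1 and the change exceeded 2-fold. The floor was set at 3 reads. edgeR (version 4.0.16) and DESeq2 (version 1.42.0) on the recovered reads were tried as alternatives. So were pseudocounts of 0.5 and 8, other filters, TMM scaling, lane, the label number and left-out samples. The methods were tested on simulated data.

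Named were the 7 members, list genes chosen by role and the 3 genes most correlated with each member. The members and the lists were chosen with earlier results of these data known. Of 22 listed cDC1 genes 20 were matched, and of 37734 identifiers 37693 were found in GENCODE M21.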

Additional observations from a re-analysis of the deposited data

Results flagged for a closer look

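Ttc39a had a sample apart from the rest of its group in both immature cDC1 groups. Splenic replicate 3 had a normalized read count of 3248, against 2724 to 2802 in the others, and thymic replicate 3 had 3909, against 3233 to 3266. Each was the highest sample, with a gap of 0.851 and 0.952 of the range of its group. Both lie in lane 8 with other samples of their groups. In all, 14 groups of 4 samples were checked, and chance flags about 1 in 20.

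The normalized read count of Dkk3 was lower in every thymic than splenic cDC1 sample and higher in every thymic than splenic cDC2 sample, but neither passed limma (adjusted p = 0.324 and 0.243). The cDC2 minus cDC1 difference of these tissue effects was 3.08 log2 units. This difference was not tested, and the cDC2 side rests on 1 splenic and 10 thymic reads, mostly at or under the floor of 3 reads per sample.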

How the results depend on the processing

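Of 924 member fold changes recomputed within a subset under the alternatives, 902 kept their direction and their call, 13 gained a call, none lost one and 9 changed sign. The 6 members other than Padi1 were called for maturation in cDC1 under every alternative run. In cDC1 between tissues the main fit called 1 gene, Padi1. It passed the filter only through immature thymic cDC1, which favours a call, so its call is a description. The count became 2 by edgeR, with a pseudocount of 8 and with only the 2 groups fitted (Dkk3 joined each time). By adjusted p alone the count was also 2 (Cadm1 joined). Counts over all genes by adjusted p alone were 2308 and 3965 between tissues in cDC1 and cDC2. Dkk3 between tissues in cDC2 was called with only 2 groups fitted (limma adjusted p = 0.0737) and without mature cDC1 replicate 2 (0.0865).

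The Wdfy4 tissue fold change in cDC1 turned to -0.00978 by DESeq2, -0.00161 with TMM scaling and -0.0269 with lane as a covariate. Averaging samples of 1 group that share a label number gave -0.00731. Over left-out samples the fold change ranged from -0.0686 to 0.11. Dkk3 in cDC2 maturation ranged from -1.32 to 0.10. With a pseudocount of 8 the cDC1 minus cDC2 differences in the spleen were 7.19 for Dkk3, 7.94 for Ttc39a and 0.50 for Padi1, and in the immature thymus 5.33 for Dkk3 and 5.41 for Padi1. A larger pseudocount shrinks differences against few reads by construction. Leaving out each sample gave ranges of 8.92 to 9.67 for Ttc39a in the spleen and, in mature cells, 0.15 to 2.96 for Dkk3, -1.34 to 0.25 for Padi1, -1.53 to -1.02 for Wdfy4, -0.16 to 0.29 for Ppt1 and 2.19 to 2.98 for Cadm1. For the other changes the cause was not tested.

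The labels do not say what the number that opens them stands for. With that label number as replicate block (correlation 0.155), Cadm1 in cDC2 maturation was called at -1.002 (limma adjusted p = 0.00635), and no other member call changed. Label numbers were shared by 2 pairs in 1 tested comparison, maturation in cDC1, with correlations from -0.0598 to 0.120. Among pairs sharing a title replicate number, correlations were 0.0133 to 0.303 between tissues in cDC1, against a mean of -0.0398 for other pairs. They lay between -0.174 and 0.153 in the remaining tested comparisons. Samples were not paired by title number in the tests. Depth limits Dkk3 outside immature cDC1 and Padi1 outside immature thymic cDC1, immature splenic cDC1 included.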
